A study of Mus musculus with 6 samples.

Results

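The 10 genes described here encode factors by which osteoclasts signal to osteoblasts: *Sphk1*, *Efnb2*, *Lif*, *Osm*, *Pdgfb*, *Tgfb1*, *Spp1*, *Igf1*, *Wnt10b* and *Bmp2*. They were chosen by name, as genes for bone coupling factors, from the 55573 mouse genes in each count table, and all 10 were found by matching Ensembl identifiers to symbols. RNA-Seq was performed on osteoclasts cultured from bone marrow–derived macrophages (BMMs) of 10-week-old mice for 4 days with M-CSF, which sustains the precursors, at 30 ng/ml and with RANKL, the ligand of RANK that drives their differentiation, at 10 ng/ml. There were 3 control and 3 Rosa-Hes1 libraries, described as biological replicates and all labelled male. Rosa-Hes1 denotes *Ctsk* Cre/WT;*Rosa* Hes1 mice, in which Cre knocked into a cathepsin K (*Ctsk*) allele excises a STOP cassette from the *Rosa26* locus and so releases HES1, a transcriptional repressor and Notch target. The labels call the controls wild type, where the study's methods describe *Rosa* [STOP]Hes1 littermates that carry the silent transgene without Cre. *Ctsk* is switched on as osteoclasts mature, so that HES1 is induced in cells already on that path. The cultures were taken whole, with osteoclasts and mononuclear precursors together.

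Bone resorption and bone formation are coupled: at a site that osteoclasts have resorbed, osteoblasts are recruited and lay down new matrix. Coupling factors reach the osteoblast by different routes. Some are secreted by osteoclasts (cytokines, growth factors, WNT ligands and the lipid sphingosine-1-phosphate), some sit on the osteoclast surface and touch a receptor on the neighboring cell (ephrins), and some lie stored in bone matrix until resorption frees them (TGF-β and IGF-I). A transcript level says how much of the message an osteoclast culture holds, and nothing here measured the protein, its release or a response of osteoblasts.

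Of the 10 factors, 4 were called higher in Rosa-Hes1 than in control osteoclasts and 0 lower, and the other 6 were not called. *Sphk1*, *Efnb2* and *Lif* rose most, by 2.57-, 2.27- and 1.88-fold, and *Pdgfb* rose 1.62-fold. The test was edgeR's quasi-likelihood test over all 16954 genes with at least 10 counts in the 6 libraries, and a gene was called at a Benjamini-Hochberg adjusted p under 0.05. All 10 factors had enough counts to be tested. Over all tested genes 8.25% were called, 5.85% higher and 2.41% lower, so that 4 of 10 higher stands beside a background of 5.85%. The difference was not tested, because the factors were chosen by hand and with earlier results of these data known. At an unadjusted p under 0.05 edgeR likewise gave 4 higher and 0 lower factors, as did DESeq2 and limma-voom at their adjusted p. The median log2 fold change of the 10 was 0.26, and that of all tested genes was -0.01. The 3 Rosa-Hes1 libraries lay above the 3 controls for 4 of the 10, and 31.2% of all tested genes had groups that did not overlap. The call for each of the 4 stood in all 14 other ways of analysis, with an adjusted p of at most 0.0368.

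*Hes1* itself, which checks the labels, averaged 0.457 ± 0.141 CPM in controls and 5.56 ± 1.17 CPM with the transgene (SD, n = 3 per group), and edgeR gave a log2 fold change of 3.57 with a standard error of 0.30 (adjusted p = 0.00477). CPM are counts scaled by library size after TMM normalization. Libraries held 13038362 to 15956331 counts in genes, and fold changes carry a 95% interval from edgeR. Markers of osteoclasts were abundant in all 6 libraries, with 13 of 13 detected and sums of 12266 to 15619 CPM in controls against 19677 to 22964 CPM with Rosa-Hes1. Of these 13, 12 were called higher, with a median log2 fold change of 0.73. The study names most of these markers for the same libraries, so that their direction is not independent evidence. Leaving out Rosa-Hes1 replicate 1 left 4 of these marker calls, and leaving out control replicate 3, Rosa-Hes1 replicate 3 or control replicate 1 left 6, 7 or 8. RNA came from whole cultures, in which a change in the share of cells that express a gene and a change in the RNA of each cell cannot be told apart. Osteoblast and stroma markers summed to 212 to 564 CPM in controls and, with Rosa-Hes1, to 144 to 443 CPM, highest in control replicate 1 and Rosa-Hes1 replicate 2, and 0 of the 12 tested were called by edgeR, DESeq2 or limma-voom (1 higher at an unadjusted p under 0.05 in edgeR). *Bglap2*, a defining gene of mature osteoblasts, had no counts. *Col1a1*, the most abundant of this list on average, was at 139 ± 91.1 CPM in controls and 124 ± 67.7 CPM with Rosa-Hes1. *Sp7*, *Runx2* and *Alpl*, also on the list, had counts in every library. Of 5 tested endothelial markers, 1 was called higher, *Vwf*, the gene of von Willebrand factor, which megakaryocytes also make and which is named here after its values were seen. It was at 1.99, 1.92 and 2.22 CPM in the controls and at 13.2, 6.39 and 7.05 CPM with Rosa-Hes1 (log2 fold change 2.12, adjusted p = 0.00795 from edgeR), and it was called in all 14 other ways of analysis. *Esam*, another endothelial marker, had a log2 fold change of 2.13 (adjusted p = 0.110 from edgeR), and its groups did not overlap. It was called by DESeq2 and, with the replicate number as a block or without Rosa-Hes1 replicate 2, by edgeR. Its values were 0.886, 0.495 and 0.518 CPM in the controls and 5.80, 1.17 and 1.31 CPM with Rosa-Hes1, so the size of its change came mostly from Rosa-Hes1 replicate 1. The 8 endothelial markers summed to 20.9 to 55.2 CPM in controls and, with Rosa-Hes1, to 34.7 to 41.4 CPM, with *Kdr* the most abundant on average, and *Cldn5* had no counts. The part of such cells in the levels of the factors was not tested.

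**Figure D1:**
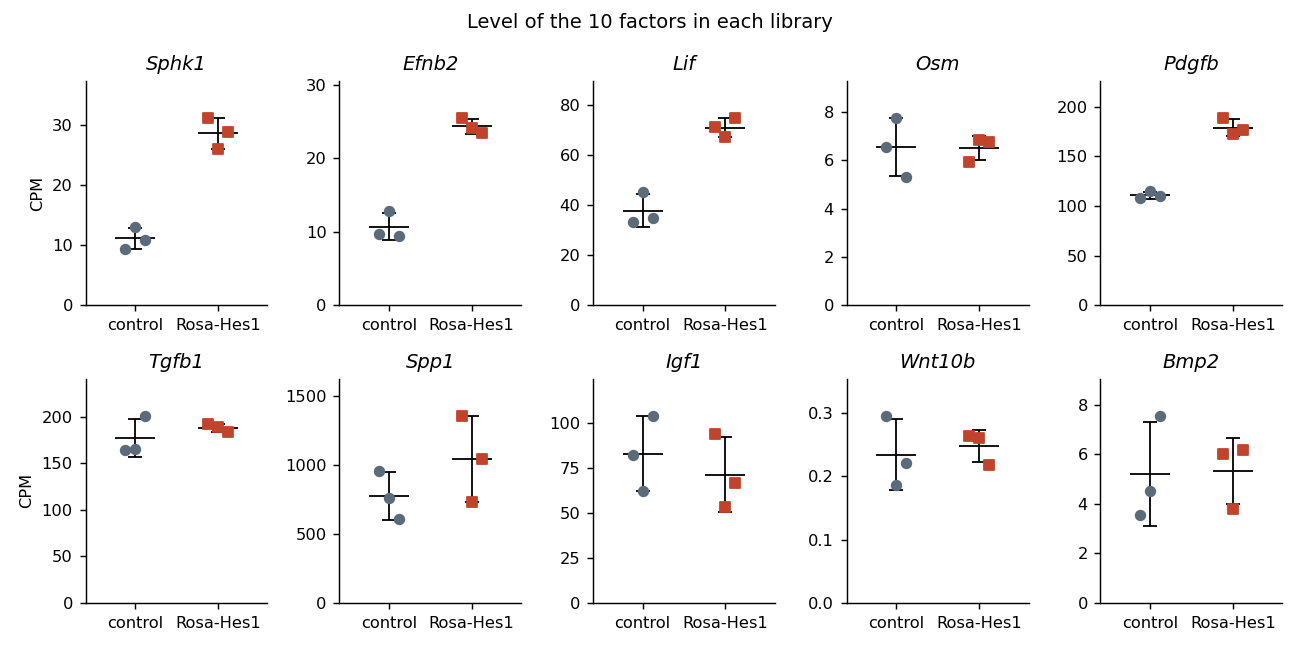
Level of each of the 10 factors, in CPM on linear axes from 0, in the 3 control libraries (grey circles) and the 3 Rosa-Hes1 libraries (red squares), with the mean (wide bar) and SD. For *Sphk1*, *Efnb2*, *Lif* and *Pdgfb* every Rosa-Hes1 library lies above every control, and for the other 6 the groups overlap.

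**Figure D2:**
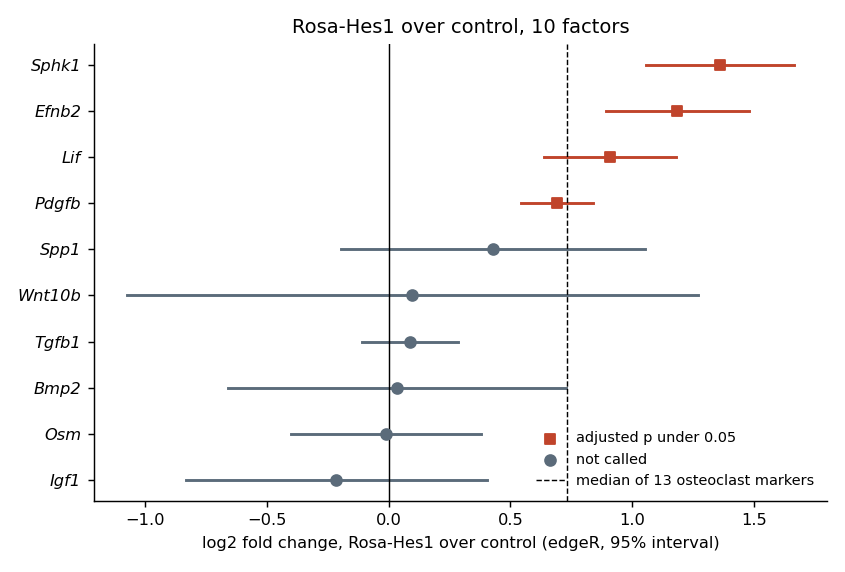
Log2 fold change of the 10 factors, Rosa-Hes1 over control, with the 95% interval from edgeR. Red squares are genes with an adjusted p under 0.05, and the dashed line is the median of the 13 osteoclast markers, 0.73. The intervals of *Sphk1* (1.06 to 1.67) and *Efnb2* (0.89 to 1.48) lie above that line, those of *Lif* and *Pdgfb* reach across it, and the interval of *Wnt10b*, which had 3 or 4 counts per library, is the widest.

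HES1 is known to repress by binding N-boxes (CACNAG) and class C sites (CACGNG) in promoters. AP-1, the FOS and JUN factors downstream of RANKL, is known to bind TGACTCA and TGAGTCA. The promoter sequences of the 3 factors that rose most are shown for that reason, as RefSeq gives them on GRCm38.p6, upstream of the transcript start, 5′ to 3′ on the strand of the gene, in lower case with a match in capitals. Of the 10 factors, 7 had at least 1 window of 250 bases before to 50 after a transcript start, 12 windows in all; *Osm*, *Pdgfb* and *Bmp2* had none. The *Efnb2* stretch (chr8:8661243-8661492, minus strand) has an N-box on the opposite strand in capitals, at position -239 from the start. The *Lif* stretch (chr11:4257318-4257556, plus strand) has an AP-1 sequence at position -228 from the RefSeq start, and is printed up to the GENCODE start, which lies 11 bases further upstream. *Sphk1* has 5 annotated starts, and the stretch before start 4 (chr11:116532194-116532443, plus strand) has CACGTG at position -95, which is both an E-box and a class C site. The 30 bases around an AP-1 sequence at position -50 from start 2 (chr11:116531776-116531805) are also given, and these lie in an exon of a transcript that starts further upstream. The windows of starts 2 and 3, which overlap, each also held 1 N-box and 3 class C sites, 1 of them the same letters as the N-box, that are not printed.
Efnb2: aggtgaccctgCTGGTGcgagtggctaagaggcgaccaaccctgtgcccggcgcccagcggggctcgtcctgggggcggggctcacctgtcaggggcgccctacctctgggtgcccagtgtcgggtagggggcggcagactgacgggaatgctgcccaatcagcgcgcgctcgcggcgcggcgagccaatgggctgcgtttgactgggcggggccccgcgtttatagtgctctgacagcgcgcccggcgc
Lif: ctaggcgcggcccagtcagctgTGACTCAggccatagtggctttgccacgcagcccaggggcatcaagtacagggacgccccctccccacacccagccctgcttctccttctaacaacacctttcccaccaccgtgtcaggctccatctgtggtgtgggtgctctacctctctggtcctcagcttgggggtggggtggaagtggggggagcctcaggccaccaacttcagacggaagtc
Sphk1, start 4: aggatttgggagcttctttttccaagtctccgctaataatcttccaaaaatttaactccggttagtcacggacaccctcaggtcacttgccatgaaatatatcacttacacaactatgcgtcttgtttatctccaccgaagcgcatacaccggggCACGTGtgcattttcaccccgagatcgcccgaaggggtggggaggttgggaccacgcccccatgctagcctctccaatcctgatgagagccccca
Sphk1, start 2: gagcgtgtcgcTGAGTCAccttctcggaag
Read on both strands, N-boxes were in 42.5% of 32851 windows of this length over all genes and class C sites in 27.5%. CACGTG, which every class C count includes, was in 7.15%. The AP-1 sequence, searched as TGANTCA and so with any middle base, was in 7.81%. Among the factors that were not called, the *Tgfb1* window held none of these letters. *Igf1* held TGAATCA, taken by this wider search, at -37, *Spp1* an N-box at 3 and *Wnt10b* a class C site at 14. A match describes the letters in these windows and was not tested for binding.

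*Sphk1* (ENSMUSG00000061878, chromosome 11 from 116530925 to 116536674) encodes sphingosine kinase 1, which makes sphingosine-1-phosphate (S1P), a lipid that osteoclasts release and that draws osteoblast precursors and keeps them alive. Control replicates 1 to 3 had 9.45, 13.1 and 10.9 CPM, and Rosa-Hes1 replicates 1 to 3 had 31.1, 25.97 and 28.9 CPM. The groups did not overlap, and the lowest Rosa-Hes1 library was 1.99 times the highest control. Means were 11.1 ± 1.82 and 28.7 ± 2.59 CPM (SD, n = 3 per group), and edgeR gave a log2 fold change of 1.36 with a standard error of 0.13 (95% interval 1.06 to 1.67, adjusted p = 0.00513). After any 1 library was left out, the log2 fold change was 1.26 to 1.49 and the adjusted p at most 0.0329. An antisense gene, *Gm29292*, shares exon sequence with *Sphk1*, and it had 6 counts over all libraries.

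*Sphk2*, the other sphingosine kinase, did not pass the test (92.5 ± 5.30 and 101 ± 6.15 CPM; adjusted p = 0.323 from edgeR), and it was added to the named genes, as were all receptors and paralogs below that were not called, after their values were seen. Per kb of exon, *Sphk1* was at 0.105 of *Sphk2* in control and 0.246 in Rosa-Hes1 osteoclasts, with no overlap between libraries (exact permutation p = 0.10, two-sided, the smallest that 3 against 3 can give). Of the other genes of the S1P pathway, 13 of 14 were tested, and 3 were called higher and 0 lower (1 lower at an unadjusted p under 0.05 in edgeR, 0 lower by DESeq2 or limma-voom), with a median log2 fold change of 0.13. The 3 were *Sgpl1*, the lyase that breaks S1P down (log2 fold change 0.41), *Spns2*, a transporter that exports S1P (0.69), and *Plpp1*, a lipid phosphate phosphatase that acts on S1P outside the cell (0.70), with adjusted p of 0.0143, 0.0401 and 0.0250 from edgeR. *Sgpl1* lost the call without control replicate 1 (adjusted p = 0.0618) or Rosa-Hes1 replicate 1 (adjusted p = 0.0688) in edgeR. *Spns2* and *Plpp1* lost it without replicate 1 or 3 of either group (0.0630 to 0.113 and 0.0674 to 0.0966), and *Spns2* also without a filter on low counts (0.0891). The ratio of *Sphk1* to the lyase per kb was 0.0307 in control and 0.0598 in Rosa-Hes1 osteoclasts, without overlap (exact permutation p = 0.10). Of the receptors, *S1pr2* was at 66.1 ± 5.17 and 78.7 ± 10.4 CPM in control and Rosa-Hes1 cultures, and *S1pr1* had a log2 fold change of 0.065; neither passed.

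*Efnb2* (ENSMUSG00000001300, chromosome 8 from 8617434 to 8661242) encodes ephrin-B2, a membrane-bound ligand on osteoclasts whose receptor EPHB4 on osteoblasts passes a signal toward bone formation while ephrin-B2 signals back into the osteoclast. The 3 controls were at 9.74, 12.8 and 9.47 CPM and the 3 Rosa-Hes1 libraries at 25.4, 24.1 and 23.4 CPM. The Rosa-Hes1 libraries lay close together, with a coefficient of variation of 4.16%, and all stood above the controls, the nearest pair 1.84-fold apart. Means were 10.7 ± 1.82 and 24.3 ± 1.01 CPM (SD, n = 3 per group), a log2 fold change of 1.18 in edgeR (95% interval 0.89 to 1.48, standard error 0.13, adjusted p = 0.00513). With 1 library left out the log2 fold change was 1.11 to 1.34 and the adjusted p at most 0.0329.

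None of the 17 tested genes among 24 other ephrin, Eph receptor and adaptor genes was called by edgeR, with 3 higher and 1 lower at an unadjusted p under 0.05 and 0 called by DESeq2 or limma-voom; edgeR called *Ephb3* higher without Rosa-Hes1 replicate 2 and *Efnb1* higher without a filter on low counts. The list's median log2 fold change was 0.07. *Efnb1*, the other B-type ephrin with more than a few counts, was at 12.9 ± 1.87 and 17.5 ± 1.18 CPM in the same order (log2 fold change 0.43, adjusted p = 0.0729 from edgeR), and its groups did not overlap. Per kb, *Efnb2* went from 0.416 ± 0.0435 to 0.703 ± 0.0645 of *Efnb1*, again without overlap (exact permutation p = 0.10). *Ephb4*, the osteoblast receptor of ephrin-B2, had 23 counts in all 6 libraries together.

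*Lif* (ENSMUSG00000034394, chromosome 11 from 4257557 to 4272514) and *Osm* (ENSMUSG00000058755, chromosome 11 from 4236420 to 4241026) encode leukemia inhibitory factor and oncostatin M, cytokines of the gp130 family that act on osteoblasts and on bone formation. They are neighbors on the chromosome, 16530 bp apart with no annotated gene between them. *Lif* was at 33.1, 45.4 and 34.9 CPM in the controls, and the Rosa-Hes1 libraries had 71.3, 67.2 and 74.8 CPM. Every Rosa-Hes1 library was above every control, and the means were 37.8 ± 6.62 and 71.1 ± 3.80 CPM (SD, n = 3 per group). The log2 fold change of *Lif* in edgeR was 0.91 with a standard error of 0.12 (95% interval 0.64 to 1.18, adjusted p = 0.00644), and 0.82 to 1.06 with 1 library left out (adjusted p at most 0.0368). *Osm*, from 72 to 125 counts per library, was at 6.57, 7.74 and 5.32 CPM in the controls, against 5.94, 6.85 and 6.76 CPM in the Rosa-Hes1 libraries. Its groups overlapped, and its log2 fold change was -0.01 (95% interval -0.40 to 0.38, adjusted p = 0.987 from edgeR).

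Per kb of exon there was 3.04 ± 0.395 times as much *Lif* as *Osm* in control and 5.73 ± 0.577 times as much in Rosa-Hes1 osteoclasts. The ratios ran from 2.63 to 3.42 and from 5.12 to 6.27, without overlap (exact permutation p = 0.10). Among 17 tested genes of 20 others of the gp130 family none was called by edgeR, with 1 higher and 2 lower at an unadjusted p under 0.05 and a median log2 fold change of -0.08. *Socs3* was called lower by DESeq2, and *Stat3* higher by limma-voom and, without Rosa-Hes1 replicate 2, by edgeR. *Il6st*, which encodes gp130, had 76.2 ± 6.05 and 79.8 ± 4.13 CPM in control and Rosa-Hes1 cultures. *Lifr* (2.65 ± 0.207 and 2.38 ± 0.269 CPM) and *Osmr* (0.665 ± 0.337 and 0.736 ± 0.262 CPM), the chains that pair with gp130 to receive LIF and oncostatin M, were low in these cultures.

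*Pdgfb* (ENSMUSG00000000489, chromosome 15 from 79995874 to 80014977) encodes the B chain of platelet-derived growth factor; PDGF-BB from preosteoclasts is known to draw mesenchymal cells and vessels to the bone surface. The controls were at 108, 115 and 109.7 CPM, and the Rosa-Hes1 libraries were at 188, 172 and 176 CPM. It had the narrowest spread among controls of the 10 factors, with a coefficient of variation of 3.25%, and the lowest Rosa-Hes1 library stood well above the highest control. Means were 111 ± 3.59 and 179 ± 8.38 CPM (SD, n = 3 per group), and the log2 fold change in edgeR was 0.69 with a standard error of 0.07 (95% interval 0.54 to 0.84, adjusted p = 0.00513). With 1 library left out it was 0.65 to 0.72 on the log2 scale, with an adjusted p of at most 0.0329.

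Of 12 tested genes among 13 others of the PDGF and VEGF families, 3 were called higher and 0 lower (1 lower at an unadjusted p under 0.05 in edgeR, 0 lower by DESeq2 or limma-voom), with a median log2 fold change of 0.10. *Pdgfa*, the A chain, had a log2 fold change of 0.74 (adjusted p = 0.00644 from edgeR), so that the ratio of *Pdgfb* to *Pdgfa* per kb was 4.26 ± 0.367 in control and 4.11 ± 0.187 in Rosa-Hes1 osteoclasts with overlapping libraries (exact permutation p = 0.70). *Vegfb*, a vascular growth factor, had a log2 fold change of 0.93 (adjusted p = 0.00520 from edgeR). *Vegfa*, the main factor for new vessels, had 1.08 (adjusted p = 0.0395 from edgeR), and it lost the call whichever library was left out except Rosa-Hes1 replicate 2 (0.107 to 0.127) and without a filter on low counts (adjusted p = 0.140). The receptors were low, *Pdgfra* at 0.588 ± 0.152 and 1.04 ± 0.576 CPM and *Pdgfrb* at 6.45 ± 2.85 and 7.18 ± 2.29 CPM in control and Rosa-Hes1 cultures, and both also stand among the stroma markers.

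*Tgfb1* (ENSMUSG00000002603, chromosome 7 from 25687002 to 25705077) encodes transforming growth factor β1, which lies latent in bone matrix and, once osteoclasts activate it, brings mesenchymal stem cells to the resorbed site. It was at 165, 165 and 201 CPM in the controls, and at 192, 189 and 183 CPM in the Rosa-Hes1 libraries. The groups overlapped through control replicate 3. Its log2 fold change was 0.09 (95% interval -0.11 to 0.28, adjusted p = 0.584 from edgeR), the narrowest interval among the 6 factors that did not pass, and its upper end lies below the log2 fold change of each of the 4 that did. Of 24 tested genes among 25 others of TGF-β activation, receptors and signaling, 2 were higher and 2 lower, with a median log2 fold change of -0.13. *Tgfbr2* was also called higher by DESeq2 and, without a filter on low counts, by edgeR, and *Smad3* lower by edgeR without Rosa-Hes1 replicate 3. *Ltbp3*, a protein that holds latent TGF-β (0.79), and *Tgfbr1*, the type I receptor (0.62), were higher with adjusted p of 0.00758 and 0.0115 from edgeR. *Skil* (-0.47) and *Tgif1* (-0.38), repressors that restrain SMAD signaling, were lower with adjusted p of 0.0177 and 0.0385 from edgeR. *Ltbp3* kept its call with any 1 library left out. *Tgfbr1* lost it without control replicate 3 (adjusted p = 0.0519) or Rosa-Hes1 replicate 1 (adjusted p = 0.0542), *Skil* without replicate 1 of either group or control replicate 3 (0.0624 to 0.0809), and *Tgif1* whichever library was left out except Rosa-Hes1 replicate 2 (0.0539 to 0.164), all in edgeR.

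*Bmp2* (ENSMUSG00000027358, chromosome 2 from 133552159 to 133562885) encodes bone morphogenetic protein 2, an inducer of osteoblast differentiation of the same superfamily. From 48 to 102 counts per library, it was at 3.54, 4.52 and 7.54 CPM in the controls, and 6.002, 3.78 and 6.18 CPM with Rosa-Hes1. The groups overlapped and the spread was the widest of the 10 factors in control, with a coefficient of variation of 40.1%. Its log2 fold change was 0.03 (95% interval -0.66 to 0.73, adjusted p = 0.968 from edgeR), an interval that reaches the log2 fold change of *Pdgfb*. Of 18 tested genes among 24 others of BMP signaling only *Twsg1*, an extracellular BMP-binding protein, was called by edgeR (log2 fold change 0.53, adjusted p = 0.0151), and the median was 0.11; DESeq2 also called *Acvr2a* and *Id1* lower, and limma-voom *Acvr2a*. *Twsg1* lost the call without control replicate 3 (adjusted p = 0.0556) or Rosa-Hes1 replicate 1 (adjusted p = 0.0695). Of the receptors, *Bmpr2* was at 55.8 ± 1.39 and 60.7 ± 0.363 CPM and *Bmpr1a* at 1.55 ± 0.454 and 2.04 ± 0.968 CPM in control and Rosa-Hes1 cultures, and neither passed.

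*Spp1* (ENSMUSG00000029304, chromosome 5 from 104435118 to 104441050) encodes osteopontin, a phosphoprotein of bone matrix that osteoclasts and osteoblasts both make and that binds αvβ3 integrin and CD44. It was the most abundant of the 10, at 958, 759 and 612 CPM in the controls and, with Rosa-Hes1, at 1357, 729 and 1047 CPM. The Rosa-Hes1 libraries spanned a 1.86-fold range, and replicate 2 lay below a pair of the controls. The means were 777 ± 174 and 1044 ± 314 CPM (SD, n = 3 per group), with a log2 fold change of 0.43 in edgeR (95% interval -0.20 to 1.05, adjusted p = 0.366). Leaving out Rosa-Hes1 replicate 1 or control replicate 3 gave a log2 fold change of 0.19 or 0.28, and leaving out control replicate 1 or Rosa-Hes1 replicate 2 gave 0.61 or 0.63, none past the threshold. Without both control replicate 1 and Rosa-Hes1 replicate 2, which had the highest stroma marker sums of their groups, the log2 fold change was 0.82. The adjusted p was 0.0331 in edgeR with 2 libraries against 2, a split chosen after the data were seen. The libraries left out were also the highest control (958 CPM) and the lowest Rosa-Hes1 library (729 CPM) for *Spp1*. A larger rise was therefore fixed in advance, and this fit cannot decide whether *Spp1* differs. The part of other cells in *Spp1* was not tested. *Gm42793*, a predicted transcript on the same strand, shares exon sequence with *Spp1* and had 51 counts in all.

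Of the 18 other genes listed for osteopontin, its relatives, receptors and processing, 13 were tested, 2 were higher and 1 was lower, with a median log2 fold change of 0.17. *Itgb3*, the β3 chain of the osteopontin receptor, had a log2 fold change of 0.78 and *Acp5*, the phosphatase that acts on osteopontin, of 0.74, with adjusted p of 0.00566 and 0.00917 from edgeR. *Itgb5*, the β5 chain, had a log2 fold change of -0.52 (adjusted p = 0.0256 from edgeR). *Acp5* lost the call without Rosa-Hes1 replicate 1 (adjusted p = 0.0536), and *Itgb5* without replicate 1 or 3 of either group (0.0754 to 0.117). The ratio of *Spp1* to *Acp5* per kb was 0.572 ± 0.203 in control and 0.444 ± 0.105 in Rosa-Hes1 osteoclasts and overlapped (exact permutation p = 0.50). *Cd44* did not pass (596 ± 31.8 and 575 ± 30.5 CPM).

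*Igf1* (ENSMUSG00000020053, chromosome 10 from 87858265 to 87937042) encodes insulin-like growth factor I, a growth factor for osteoblasts that bone matrix also stores. Controls were at 82.4, 62.3 and 103.7 CPM, and Rosa-Hes1 libraries at 93.9, 53.2 and 66.4 CPM. The groups overlapped, with coefficients of variation of 25.0% and 29.1%, and the log2 fold change was -0.22 (95% interval -0.83 to 0.40, adjusted p = 0.670 from edgeR). It was -0.47 without Rosa-Hes1 replicate 1 and -0.02 without control replicate 3. The only call among the 10 tested of 17 other IGF genes was *Igf2r*, a receptor that removes IGF-II and sorts lysosomal enzymes (log2 fold change 0.55, adjusted p = 0.0373 from edgeR); DESeq2 also called *Igfbp4* lower. That call was lost whichever library was left out except Rosa-Hes1 replicate 3 (0.0576 to 0.134). *Igf1r*, the receptor of IGF-I, was at 13.4 ± 2.58 and 14.2 ± 1.24 CPM in control and Rosa-Hes1 cultures and did not pass.

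*Wnt10b* (ENSMUSG00000022996, chromosome 15 from 98770712 to 98778150) encodes a WNT ligand that favors osteoblast over fat cell formation. It had 4, 3 and 3 counts in the control and 4, 4 and 3 counts in the Rosa-Hes1 libraries, or 0.186 to 0.295 CPM, where 3 counts correspond to 0.186 to 0.222 CPM. The groups overlapped at this floor, and a log2 fold change of 0.10 with a 95% interval of -1.07 to 1.27 (adjusted p = 0.941 from edgeR) means that no difference was detectable at this depth. Of 39 other WNT ligands, receptors and inhibitors, 23 were tested, 2 were higher and 1 was lower, with a median log2 fold change of 0.21. *Lrp5* was also called lower by limma-voom and, without Rosa-Hes1 replicate 2, by edgeR. *Wnt9a*, another WNT ligand, averaged 0.189 ± 0.0556 and 1.73 ± 0.829 CPM (SD, n = 3 per group), a log2 fold change of 3.16 in edgeR (standard error 0.56, adjusted p = 0.0142). It rests on 84 counts over all libraries, and its adjusted p was 0.0526 to 0.0669 when any control or Rosa-Hes1 replicate 1 was left out. *Fzd5*, a WNT receptor, had a log2 fold change of 1.05 (adjusted p = 0.00513 from edgeR) and kept its call with any 1 library left out. *Wls*, the carrier that WNT ligands need for secretion, had a log2 fold change of -0.38 (adjusted p = 0.0266 from edgeR) and lost the call without replicate 1 or 3 of either group (0.0856 to 0.102).

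**Figure D3:**
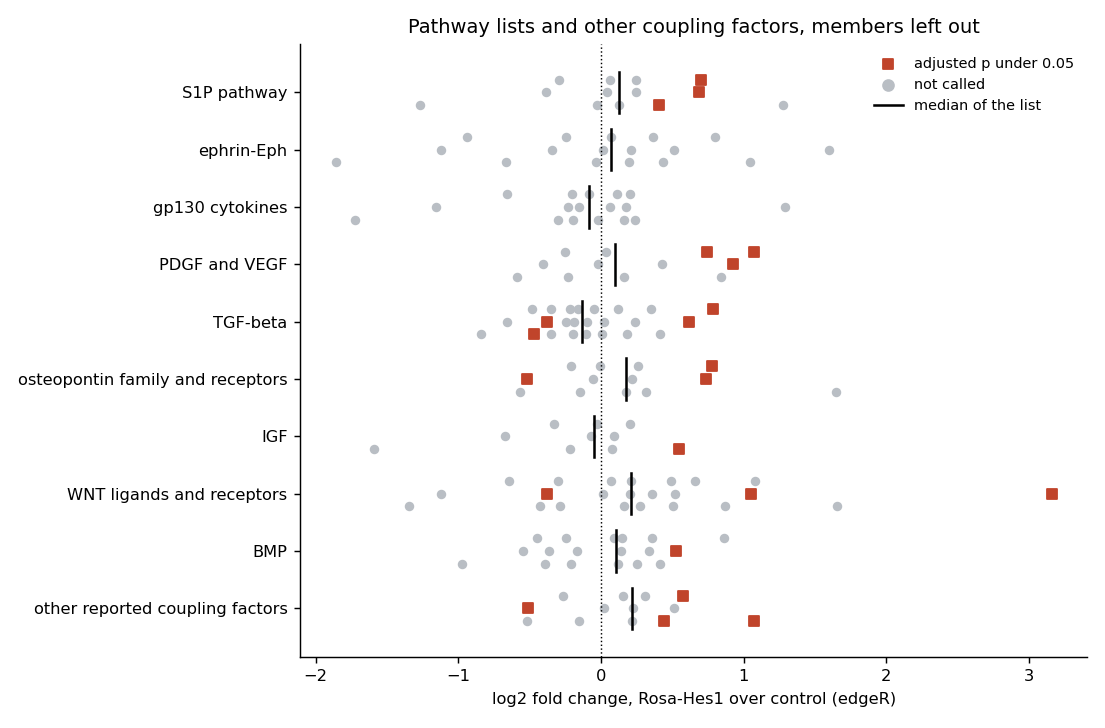
Log2 fold change of the tested genes of the 9 pathway lists and of a list of other reported coupling factors, without the 10 factors themselves, Rosa-Hes1 over control (edgeR). Red squares have an adjusted p under 0.05, grey circles do not, the black bar is the list's median, and points are spread vertically only to keep them apart. No square stands in the ephrin-Eph or gp130 list, and *Wnt9a*, at 3.16, stands farthest to the right.

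Over the 9 pathway lists together, 14 of 147 tested genes, the osteoclast markers *Itgb3* and *Acp5* among them, were higher and 4 lower (12.2% called, beside 8.25% of all tested genes), with a median log2 fold change of 0.04. This number depended on single libraries, and fell to 5, 7 or 8 calls when Rosa-Hes1 replicate 1, control replicate 3 or control replicate 1 was left out. Calls over all genes fell as well in these fits, from 1399 to 265, 393 and 369 in that order. The number of the 10 factors called higher was 4 with any 1 library left out.

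Compared per kb of exon, the levels of the 10 factors spanned from *Spp1* to *Wnt10b*. *Spp1* lay between 372 and 823 CPM per kb, above 99.8% of all tested genes. *Tgfb1* (32.7 to 39.8) and *Pdgfb* (25.9 to 45.2) came next, above 90.2% and 89.7% of genes. *Lif* lay between 7.62 and 17.2 CPM per kb, *Igf1* between 5.38 and 10.5 and *Sphk1* between 1.98 and 6.52. *Osm* (2.34 to 3.41), *Efnb2* (1.38 to 3.70) and *Bmp2* (1.00 to 2.12) had means over the 6 libraries under the median gene, which was at 3.66 CPM per kb (the highest *Efnb2* library lay above it), and *Wnt10b* (0.0546 to 0.0868) was above only 6.15% of genes. Over the 6 libraries each factor overlapped the next in this order, except *Spp1* with *Tgfb1*, *Pdgfb* with *Lif* and *Bmp2* with *Wnt10b*.

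The order differed between the groups. In control osteoclasts *Tgfb1* stood at 2 and *Pdgfb* at 3, with 35.1 ± 4.08 and 26.6 ± 0.863 CPM per kb and no overlap, and in Rosa-Hes1 osteoclasts *Pdgfb* stood at 2 and *Tgfb1* at 3, with 42.9 ± 2.01 and 37.3 ± 0.859 CPM per kb, again without overlap. *Osm* stood at 6 in control osteoclasts, where it overlapped *Sphk1* at 7, and at 8 in Rosa-Hes1 osteoclasts, behind *Sphk1* and *Efnb2* and without overlap. The exchange of *Tgfb1* and *Pdgfb* depended on the length used: per kb of the longest transcript *Tgfb1* stood at 2 and *Pdgfb* at 3 in both groups, at 68.8 ± 7.99 and 37.6 ± 1.22 in control and 73.1 ± 1.68 and 60.7 ± 2.85 in Rosa-Hes1 osteoclasts. On that scale *Igf1* and *Lif* stood at 4 and 5 in control, with overlapping libraries, and at 5 and 4 in Rosa-Hes1 osteoclasts, while the places of *Osm*, *Sphk1* and *Efnb2* in each group stayed as above. With the length of the longest transcript in place of merged exons, 8 of the 10 places over all libraries were unchanged, and *Efnb2* and *Osm* changed places.

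Because the osteoclast markers were also higher, each factor was set against their summed level in the same library. That sum is weighted by abundance, with *Mmp9* (5091 and 8457 CPM in control and Rosa-Hes1 osteoclasts) and *Ctsk* (3146 and 3329 CPM) the highest. *Ctsk*, of which an allele carries Cre in Rosa-Hes1 mice, was the 1 marker not called. Other weightings of the markers were not tried, so the values below hold for this sum only. *Sphk1* was at 0.770, 0.836 and 0.758 CPM per 1000 CPM of markers in control and at 1.41, 1.32 and 1.26 in Rosa-Hes1 libraries. *Efnb2* went from 0.757 ± 0.0845 to 1.13 ± 0.103 and *Lif* from 2.68 ± 0.236 to 3.30 ± 0.104 CPM per 1000 CPM (SD, n = 3 per group). For these 3 the Rosa-Hes1 libraries lay above the controls on this scale too, each with an exact permutation p of 0.10, which is the smallest possible. *Lif*, with a log2 fold change of 0.91 in edgeR, rose less than the markers *Oscar* (1.13), *Clcn7* (1.08), *Calcr* (1.07) and *Dcstamp* (1.05). The other markers rose less than *Lif*. *Pdgfb* was at 7.92 ± 0.755 and 8.30 ± 0.558 CPM per 1000 CPM of markers, with overlapping libraries (exact permutation p = 0.60). *Osm* (0.467 ± 0.0855 and 0.304 ± 0.0408), *Tgfb1* (12.7 ± 1.82 and 8.75 ± 0.806) and *Bmp2* (0.368 ± 0.137 and 0.244 ± 0.0449) had all Rosa-Hes1 libraries below the controls, again at an exact permutation p of 0.10. The summed markers were themselves higher in every Rosa-Hes1 library than in every control, so a factor with an unchanged level falls on this scale. In CPM, *Osm*, *Tgfb1* and *Bmp2* had log2 fold changes of -0.01, 0.09 and 0.03 in edgeR. The share of all genes whose groups separate on this scale was not computed. *Spp1*, *Igf1* and *Wnt10b* overlapped. Summed macrophage markers, by contrast, were at 9792 to 11618 CPM in controls against 9446 to 11286 CPM with Rosa-Hes1. The part that the share of osteoclasts in each culture has in these values was not tested.

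**Figure D4:**
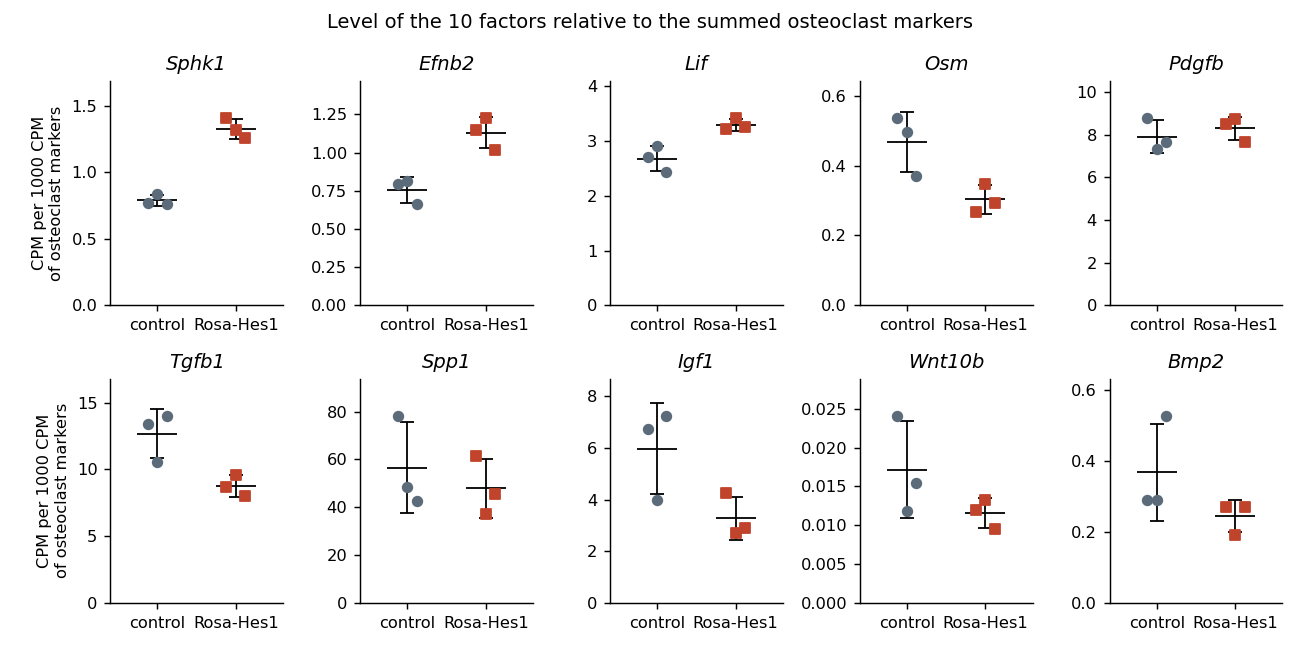
Level of each factor divided by the summed level of 13 osteoclast markers in the same library, as CPM per 1000 CPM of markers on linear axes from 0, for 3 control (grey circles) and 3 Rosa-Hes1 libraries (red squares) with mean and SD. *Sphk1*, *Efnb2* and *Lif* keep the Rosa-Hes1 libraries above the controls, *Pdgfb* overlaps, and *Osm*, *Tgfb1* and *Bmp2* have them below. The marker sum was itself higher in every Rosa-Hes1 library, so an unchanged factor falls on this scale. The sum is weighted toward its most abundant markers, *Mmp9* and *Ctsk*.

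**Figure D5:**
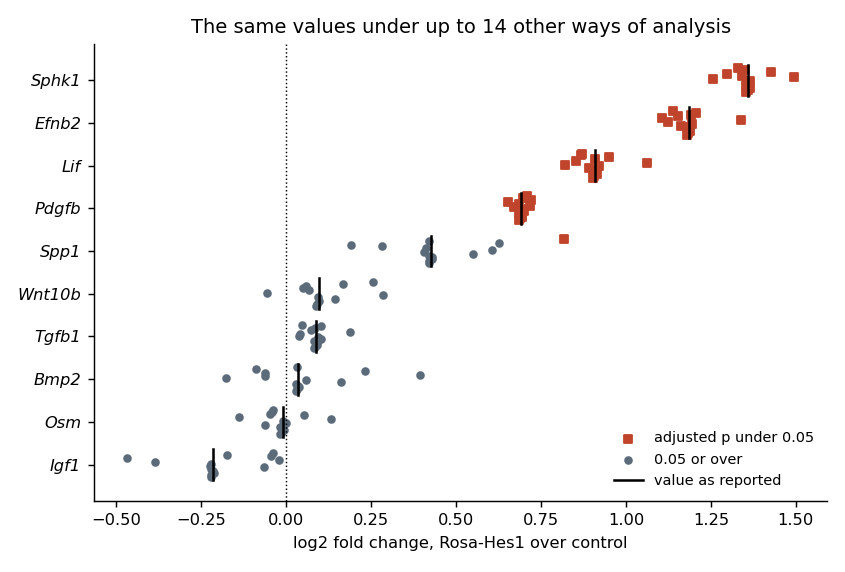
Log2 fold change of the 10 factors under 14 other ways of analysis, each a point (12 for *Wnt10b*), with the value as reported as a black bar. Points for *Sphk1*, *Efnb2*, *Lif* and *Pdgfb* are red squares throughout, which marks an adjusted p under 0.05. The single red square of *Spp1*, at 0.82, is the split without control replicate 1 and Rosa-Hes1 replicate 2. These are its highest control and lowest Rosa-Hes1 library, so that a larger rise was fixed in advance.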

How the data were processed

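RNA-Seq of 3 control and 3 Rosa-Hes1 osteoclast cultures was analysed from 1 deposited file of counts per library. Per the submitters' notes and the study's methods, the authors trimmed reads with Sickle, aligned them with HISAT2 2.1.0, used SAMtools 1.9, removed duplicates with Picard and counted with HTSeq. The deposited values are raw whole-number counts for each Ensembl gene; 17.4% to 18.1% of each library lay outside genes and was left out. The methods name a human genome, the notes GRCm38, and all identifiers are mouse; positions and exon lengths are from GENCODE M21 on GRCm38. The strand setting is not given in the sources used here.

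Genes with under 10 counts over 6 libraries were left out. Rosa-Hes1 and control were compared by edgeR 4.0.16 (R 4.3.3), with TMM factors, robust quasi-likelihood dispersions and no covariate; the study used DESeq2 with covariates it does not name. The biological coefficient of variation was 0.124. The test was tried first on simulated data with known changes. Libraries of a group differed by 9.49 to 18.4 times counting noise, so none was a duplicate. P-values measure the spread between these cultures, and the intervals from edgeR include that spread as well.

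Alternatives were DESeq2's size factors, upper quartile factors, filterByExpr, no filter, DESeq2 1.42.0, limma-voom (limma 3.58.1), the replicate number as a block and each library left out. The named genes were all 10 factors, *Hes1* and, of each pathway list, up to 4 called genes with the smallest adjusted p and every call where 5 or fewer were made. The factors and lists were chosen with earlier results of these data known, so no list was tested as a set. The other marker lists (endothelial, megakaryocyte, neutrophil and lymphocyte) overlapped between the groups in summed level, at 20.9 to 55.2, 20.4 to 69.7, 223 to 452 and 0.370 to 0.857 CPM over the 6 libraries, although the endothelial marker *Vwf* was called higher.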

Additional observations from a re-analysis of the deposited data

How the results depend on the processing

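The direction and the call of *Sphk1*, *Efnb2*, *Lif* and *Pdgfb* stood in all 14 alternatives. The number of factors called higher was 4 in 13 of them and 5, with *Spp1*, when control replicate 1 and Rosa-Hes1 replicate 2 were both left out. That split removes the highest control and the lowest Rosa-Hes1 value of *Spp1*, so it cannot decide whether *Spp1* differs. Over all genes the count depended on the tool and on single libraries: 1399 were called in edgeR, 2178 by DESeq2's Wald test, 2335 by limma-voom and 265 to 2646 with 1 library left out, fewest when Rosa-Hes1 replicate 1 was missing and most when Rosa-Hes1 replicate 2 was. Calls among the pathway genes and other reported coupling factors together numbered 5 to 28 with 1 library left out, against 21. With fewer libraries the fit has fewer degrees of freedom, and the cause of the differences between tools was not tested. Of 445 values for 32 named genes, 374 kept their direction and side of the threshold, 62 lost the call, 1 gained it and 8 changed sign. All 8 belong to factors near 0, whose log2 fold changes with 1 library left out were -0.14 to 0.13 for *Osm*, -0.056 to 0.28 for *Wnt10b* and -0.18 to 0.39 for *Bmp2*. *Wnt10b* was not tested under filterByExpr and had no adjusted p in DESeq2, and *Wnt9a* had none in DESeq2.

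Whether the replicate numbers in the labels pair the libraries could not be decided. Deviations from the group means correlated at 0.001, -0.162 and 0.379 for numbers 1, 2 and 3. Between unlike numbers they correlated at -0.487 to 0.477. With 3 libraries per group, such correlations cannot exclude pairing. With the replicate number as a block, the log2 fold change of *Osm* was 0.0008, the genes called numbered 1050 and those among the pathway genes and other coupling factors 17; *Tgif1* (adjusted p = 0.0702), *Itgb5* (adjusted p = 0.0564), *Igf2r* (adjusted p = 0.0505) and *Wls* (adjusted p = 0.0520) lost the call in edgeR, and no call of the 10 factors changed. Depth limits what can be said of *Wnt10b*.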

Other observations

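Another 17 genes have been reported as coupling signals, of which 5 also stand in the pathway lists above, and 13 of the 17 were tested; 3 were higher and 1 was lower in Rosa-Hes1 osteoclasts. *Sema4d* encodes semaphorin 4D, which osteoclasts carry and which restrains osteoblasts, and its means were 630.3 ± 50.3 CPM in controls and 856 ± 41.3 CPM with Rosa-Hes1 (SD, n = 3 per group), a log2 fold change of 0.44 (adjusted p = 0.0145 from edgeR). *Jag1*, a Notch ligand, averaged 26.1 ± 2.88 and 38.9 ± 4.92 CPM (log2 fold change 0.58, adjusted p = 0.0235 from edgeR). *Cxcl16*, a chemokine, was lower, at 185 ± 9.84 and 130.2 ± 10.8 CPM (log2 fold change -0.51, adjusted p = 0.0101 from edgeR). *Vegfa*, given above with its family, was the other higher gene. *Sema4d* lost its call without replicate 1 of either group or control replicate 3 (adjusted p in edgeR 0.0556 to 0.0687), *Jag1* without control replicate 2 or 3 or Rosa-Hes1 replicate 1 or 3 (0.0568 to 0.100), and *Cxcl16* without Rosa-Hes1 replicate 1 (0.0561).

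Several abundant coupling genes did not pass. *C3*, the complement component, was at 1331 ± 246 and 1195 ± 280 CPM, and *Cst3*, which encodes cystatin C, was at 634 ± 50.2 and 735 ± 57.7 CPM in control and Rosa-Hes1 osteoclasts. *Tnfrsf11a*, which encodes RANK, the RANKL receptor that osteoclasts also release on vesicles, was at 252 ± 9.03 and 257 ± 6.39 CPM (log2 fold change 0.02, adjusted p = 0.850 from edgeR). *Slit3* (62 counts over the 6 libraries) and *Cthrc1* (158 counts) were low. The genes of this paragraph were picked with their values known.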
